A study of Mus musculus with 4 samples.

Results

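The 41 genes described here make DNA replication possible: they license and fire origins, build and run the replication fork, supply nucleotides and control entry into S phase. They were taken by symbol from the 55487 annotated genes of the count table, and all 41 were found and passed the filter on low counts, which left 13230 genes to test. The cells were LPC-HRas, a line labelled as mouse liver cancer cells and kept unstimulated, and RNA was sequenced from 2 libraries of control genotype and 2 in which UBXN9 was overexpressed. The mouse gene for UBXN9, which carries a UBX domain, is Aspscr1. The labels give neither the vector used nor whether libraries of a group came from separate cultures or clones, so p-values measure the spread between these libraries only.

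Aspscr1 itself stood at 92.1 and 115.1 CPM in the controls and at 391.6 and 380.0 CPM after overexpression, where CPM is a count scaled to library size with TMM factors. Totals ran from 21814969 to 26292686 counts. Of 12 liver lineage and progenitor markers, 8 stayed under 1 CPM in every library, and Alb had no count in any. Spp1 stood at 2200 to 2990 CPM and Sox9 at 168 to 208 CPM, and neither passed the test. The epithelial keratins Krt18 and Krt19 passed it and were lower after overexpression. Krt18 had 2.67 and 2.99 CPM in control 1 and 2 and 0.348 and 0.113 CPM in UBXN9 1 and 2 (log2 fold change -3.66, edgeR adjusted p = 0.00972). Krt19 had 7.06 and 10.4 CPM against 3.29 and 2.15 CPM (log2 fold change -1.69, edgeR adjusted p = 0.0294). Summed over 6 lymphoid markers the level was 0.0382 to 0.299 CPM. Summed over 5 myeloid markers it was 6.64 to 11.8 CPM and over 4 endothelial markers 1.91 to 4.38 CPM. Summed over 5 stellate and fibroblast markers it was 223.1 and 205.6 CPM in control 1 and 2 and 353.0 and 423.7 CPM in UBXN9 1 and 2. Of these, Col1a1 (log2 fold change 2.20, edgeR adjusted p = 0.00136) and Acta2 (1.27, edgeR adjusted p = 0.00784) passed and were higher. Pdgfrb and Des did not pass, and Lrat was not tested. The myeloid marker Lyz2, at 0.635 to 3.14 CPM, also passed and was higher (log2 fold change 1.82, edgeR adjusted p = 0.0408). The defining hepatocyte marker Alb was thus absent from cells labelled as liver cancer cells. The part of the keratin, stellate and myeloid marker differences in the results was not tested.

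In G1, the origin recognition complex, Cdc6 and Cdt1 load the Mcm2 to Mcm7 helicase onto origins, and geminin later blocks reloading. At S phase entry Cdc45 and the GINS complex turn each helicase into an active fork, on which primase, polymerases, the sliding clamp Pcna and its loaders work. Transcription of many of these genes is driven by E2F factors once cyclin-dependent kinases have inactivated the retinoblastoma protein. Their mRNA is therefore known to be highest around the G1 to S transition. In bulk RNA, fewer cells in S phase and less RNA per cell cannot be told apart.

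Since E2F factors are the textbook regulators of these genes, their promoters were read first. RefSeq promoter windows (GRCm38.p6, 250 bases before to 50 after a transcription start) were found for 32 of the 41 genes, as 38 windows. The E2F search used the letters TTTCCCGC, TTTGGCGC, TTTCGCGC and TTTGCCGC on both strands. A match lay in 14 of the 38 windows, 36.8%, against 2.26% of all 32851 windows in the table. The letters CCAAT, the box bound by NF-Y, lay in 60.5% of the windows and in 37.4% of all. TTTGAA, a core of the element found in many mitotic promoters, lay in 13.2% against 17.9% of all, and in 78.6% of the 28 windows of a list of mitosis genes. Of those 28 windows, CCAAT lay in 78.6% and the E2F letters in 3.57%. Matches to different motifs can share at most an end base. A match is a string of letters, not a measured binding site.

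The first set of sequences shows the promoters of the genes with the smallest p values. Each is given 5′ to 3′ on the strand of the gene, up to the base before the first exon that GENCODE M21 annotates in the window, with E2F and CCAAT matches in capitals. The window of E2f1 lay inside an annotated exon and is not shown. Rrm2 is read from chr12:24708091-24708240 on the plus strand, Prim1 from chr10:128015018-128015167 on the plus strand and Tk1 from chr11:117826093-117826242 on the minus strand.
Rrm2: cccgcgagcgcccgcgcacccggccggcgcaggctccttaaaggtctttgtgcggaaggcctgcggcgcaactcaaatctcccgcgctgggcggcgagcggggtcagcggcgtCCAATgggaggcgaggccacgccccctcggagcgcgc
Prim1: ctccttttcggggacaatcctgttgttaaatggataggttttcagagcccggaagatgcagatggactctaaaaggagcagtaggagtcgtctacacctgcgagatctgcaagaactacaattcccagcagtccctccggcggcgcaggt
Tk1: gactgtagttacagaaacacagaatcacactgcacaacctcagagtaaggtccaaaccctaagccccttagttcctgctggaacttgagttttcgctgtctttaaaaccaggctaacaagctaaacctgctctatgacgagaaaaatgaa
Rrm2 holds CCAAT 50 to 46 bases before its start, the CCAAT of Prim1 lies inside an annotated exon and is not shown, and none of the 3 stretches holds the E2F letters.

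The second set shows the E2F match nearest the start, in capitals with up to 10 bases on either side, for 6 genes picked after their values were seen. Mcm3, Cdc6 and Pold1 had the smallest p values among genes with a match, and Rfc3, Cdt1 and Mcm6 are the genes with a match whose log2 fold change was positive. The positions are chr1:20820276-20820303 (Mcm3, minus), chr11:98908003-98908030 (Cdc6, plus), chr7:44548766-44548786 (Pold1, minus), chr5:151651191-151651218 (Rfc3, minus), chr8:122568037-122568064 (Cdt1, plus) and chr1:128359735-128359762 (Mcm6, minus).
Mcm3: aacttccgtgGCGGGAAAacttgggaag
Cdc6: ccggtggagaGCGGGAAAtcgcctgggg
Pold1: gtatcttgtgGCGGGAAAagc
Rfc3: tttcgcgctcGCGGGAAAactctactgt
Cdt1: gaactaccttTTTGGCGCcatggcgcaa
Mcm6: attggacgggTTTGGCGCgaagtagctc
The match lies before the start in Cdc6 and Mcm6, at the start in Rfc3 and after it in Mcm3, Pold1 and Cdt1. The letters GCGGGAAA were those of Mcm3, Cdc6, Pold1 and Rfc3, and TTTGGCGC those of Cdt1 and Mcm6. Values on either side of 0 among the 6 follow from how they were picked. Over the 14 genes with a match the median log2 fold change was -0.36 with 11 negative, and over the 18 genes with a window and no match it was -0.36 with all 18 negative. The 18 include E2f1, whose window lay inside an annotated exon, so the bases before its annotated 5′ end were not searched. Whether these sets differ was not tested.

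The comparison asked how these genes differ when UBXN9 is raised. Most of them had somewhat lower levels in the UBXN9 libraries, by amounts that mostly did not pass the test. Log2 fold changes were negative for 36 of the 41 genes. Their median was -0.33, beside -0.0056 over all 13230 genes tested, of which 50.5% were negative. Fold changes ran from -0.80 for Rrm2 to 0.43 for Rfc3. By edgeR's quasi-likelihood test with Benjamini-Hochberg adjustment over all genes, Rrm2 fell and the other 40 did not pass an adjusted p of 0.05. That is 1 of 41 genes lower, or 2.44%, where 2.38% of all genes tested were called lower, 5.06% higher and 7.44% in either direction, so the share of calls was near the background. In 24 of the 41 genes both UBXN9 libraries lay below both controls, and the share of all genes with that order was 25.6%. In 3 genes both lay above, against a background of 25.0%, and in 14 the groups overlapped. An unadjusted p under 0.05 with a lower level was found for 13 of the 41, beside 9.25% of all genes.

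**Figure D1:**
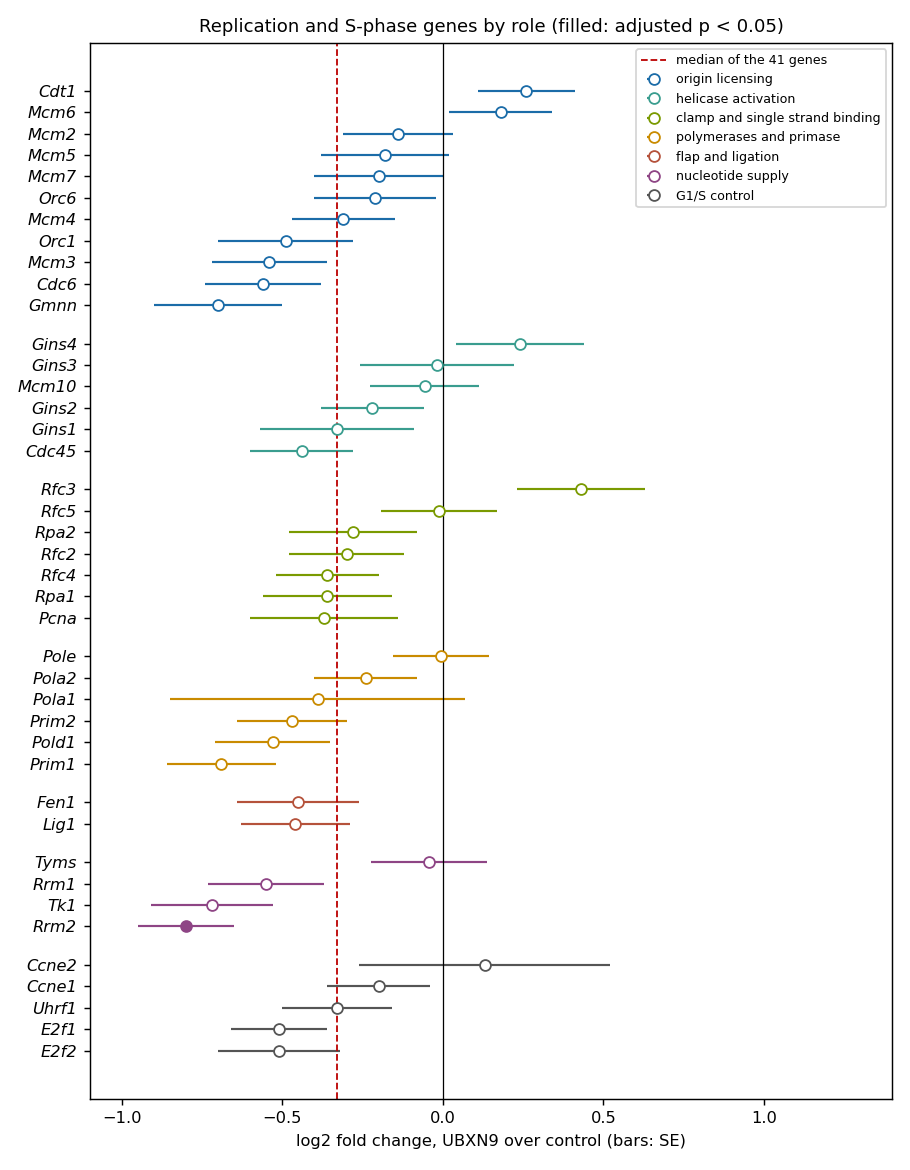
Log2 fold change of UBXN9-overexpressing over control cells (x axis) for each of the 41 genes, grouped and coloured by role, with bars of 1 SE derived from edgeR's F statistic, a filled point for an adjusted p under 0.05 and a dashed line at the median of -0.33. Rrm2 is the filled point, and the positive values are those of Cdt1, Mcm6, Gins4, Rfc3 and Ccne2.

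These genes also moved together between libraries of the same group. Control 2 lay above control 1 for 34 of the 41, with a median log2 difference of 0.15, and UBXN9 2 lay below UBXN9 1 for 31, with a median of -0.22. Over all genes tested the same medians were -0.01 and -0.023. Leaving out control 2 gave a median of -0.23 and leaving out UBXN9 2 gave -0.21, while leaving out control 1 or UBXN9 1 gave -0.37 and -0.40.

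Nucleotide supply was the role with the lowest median, -0.64 over 4 genes, all negative. Ribonucleotide reductase turns ribonucleotides into the deoxy forms, and Rrm2 encodes its small subunit, whose level limits the enzyme in S phase. Rrm2 (ENSMUSG00000020649, chromosome 12, 24708241 to 24714146, GRCm38) had 157.7 and 164.6 CPM in control 1 and 2 and 90.4 and 95.0 CPM in UBXN9 1 and 2. The groups were far apart relative to their spread, with means of 161 ± 4.85 and 92.7 ± 3.20 CPM (SD, n = 2). That is a log2 fold change of -0.80 (SE 0.15, edgeR adjusted p = 0.0221). Without control 1 the adjusted p of Rrm2 was 0.13 and without control 2 it was 0.243, at fold changes of -0.83 and -0.77, and with a replicate block it was 0.0728.

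Rrm1, the large subunit that carries the active site, had 219.6 and 262.0 CPM in the controls against 181.3 and 146.7 CPM, and its log2 fold change of -0.55 (SE 0.18) had an adjusted p of 0.134. The CPM ratio of Rrm1 to Rrm2 was 1.39 and 1.59 in the controls, against 2.0 and 1.54 in UBXN9-overexpressing cells, so the groups overlapped in that ratio. Tk1, the thymidine kinase of the salvage pathway, had 132 and 161 CPM in the controls and 99.2 and 79.0 CPM in the UBXN9 libraries. The groups did not overlap, and the log2 fold change of -0.72 (SE 0.19) missed the threshold at an adjusted p of 0.0694. Tyms makes thymidylate by the other route, from deoxyuridylate. Its levels overlapped, with 98 and 105 CPM in control and 112 and 84.7 CPM in UBXN9-overexpressing cells, and a log2 fold change of -0.044 (SE 0.18).

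Among the 11 genes of origin licensing 9 had negative values, with a median of -0.21. Gmnn encodes geminin, which holds Cdt1 inactive after licensing. It had 22.4 and 19.1 CPM in the controls and 12.9 and 12.7 CPM in the UBXN9 libraries, a log2 fold change of -0.70 (SE 0.20, adjusted p = 0.0903). Cdt1, the loader that geminin blocks, lay on the other side, with 157 and 173 CPM against 199.8 and 195 CPM. Its log2 fold change was 0.26 (SE 0.15, adjusted p = 0.397). Cdt1 lies on chromosome 8, where the median over all genes tested was 0.31. Neither gene passed alone, and in both the groups did not overlap. The ratio of Cdt1 to Gmnn in CPM was 7.02 and 9.02 in the controls, against 15.5 and 15.3 in UBXN9-overexpressing cells, a description of a pair picked after its values were seen.

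Cdc6, the ATPase that brings the helicase to the origin complex, had 67.8 and 75.4 CPM in the controls and 54.6 and 42.3 CPM after overexpression. The log2 fold change was -0.56 (SE 0.18, adjusted p = 0.132). Orc1, the cell-cycle regulated subunit of the origin recognition complex, had 19.2 CPM in each control and 15.2 and 12.3 CPM in the UBXN9 libraries. Both genes had all UBXN9 values below all control values and missed the threshold (adjusted p = 0.235 for Orc1). Orc6, another subunit of that complex, overlapped between groups, with a log2 fold change of -0.21.

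The helicase subunits Mcm2 to Mcm7 work as a ring of 6 different proteins. None of their mRNAs passed the test, and differences between subunits were not tested. Mcm3 had 459.8 and 552 CPM in the controls and 357 and 336 CPM in the UBXN9 libraries, a log2 fold change of -0.54 (SE 0.18, adjusted p = 0.128). Mcm6 had 289 and 311 CPM in the controls and 332 and 347 CPM in the UBXN9 libraries, a log2 fold change of 0.18 (SE 0.16, adjusted p = 0.59). The ratio of Mcm6 to Mcm3 in CPM was 0.629 and 0.564 in control 1 and 2 and 0.929 and 1.03 in UBXN9 1 and 2. Mcm4 also had both UBXN9 libraries below both controls (log2 fold change -0.31), whereas Mcm2, Mcm5 and Mcm7 overlapped between the groups at -0.14, -0.18 and -0.20. Mcm2, with the smallest value of the licensing genes, had 292.5 and 341.7 CPM in the controls and 309.3 and 266.8 CPM after overexpression.

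Per kilobase of transcript, Mcm7 was the highest of the 6 subunits in every library, at 148.2 to 208.6 CPM per kilobase, and Mcm4 the lowest, at 30.6 to 41.2. As a share of the summed level per kilobase of all 6, Mcm3 took 23.6% and 24% in the controls, against 18.2% and 19.5% in UBXN9-overexpressing cells. Mcm6 took 15.5% and 14.1% against 17.6% and 20.9%. The shares of Mcm2 lay between 13.4% and 14.2% in all libraries.

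**Figure D2:**
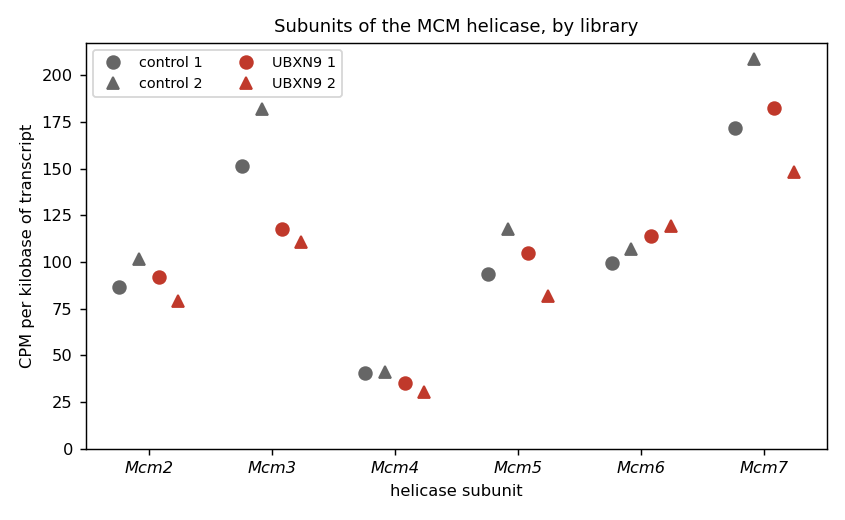
Level of the 6 MCM helicase subunits in CPM per kilobase of transcript (y axis, from 0), with 1 point per library, grey for control and red for UBXN9-overexpressing cells, circles for library 1 and triangles for library 2. The red points lie below the grey for Mcm3 and Mcm4 and above them for Mcm6, and grey and red interleave for Mcm2, Mcm5 and Mcm7.

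Helicase activation showed smaller values, with a median of -0.14 over 6 genes. Cdc45, the factor that completes the active helicase, had 99.7 and 110.6 CPM in the controls against 83.4 and 72.2 CPM (log2 fold change -0.44, SE 0.16, adjusted p = 0.174). The 4 GINS subunits ran from -0.33 for Gins1 to 0.24 for Gins4. Gins4 had 79.2 and 87.4 CPM in the controls and 114.7 and 82.1 CPM in the UBXN9 libraries, so the positive value came from UBXN9 1, and it was -0.018 without that library. Gins3 and Mcm10, which binds the activated helicase, had log2 fold changes of -0.017 and -0.056 with overlapping groups. Gins3 had 12.2 and 10.5 CPM in the controls and 12.7 and 9.76 CPM after overexpression. Gse1 covers 67.3% of the exon length of Gins2 on the opposite strand, so the value of Gins2 (-0.22) is uncertain, since the use of strand in counting is not stated.

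The polymerases and primase had a median of -0.43 over 6 genes, all negative. Primase makes the short RNA primers, with Prim1 as its catalytic subunit. Prim1 had 37.2 and 34.6 CPM in the controls and 23.7 and 20.7 CPM in the UBXN9 libraries. The groups were clearly separate, with a log2 fold change of -0.69 (SE 0.17). The adjusted p was 0.0627 by edgeR, 0.0371 by DESeq2 and 0.201 by edgeR with a replicate block. Prim2, the partner subunit, had 49.6 and 58.5 CPM against 38.7 and 39.2 CPM (log2 fold change -0.47, adjusted p = 0.157). Pold1, the catalytic subunit of the lagging strand polymerase, had 128 and 160.3 CPM against 108 and 90.7 CPM (log2 fold change -0.53, adjusted p = 0.147).

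Pole, the catalytic subunit of the leading strand polymerase, overlapped between groups, at 94.1 and 98.6 CPM in the controls and 90.8 and 101 CPM in the UBXN9 libraries. The difference was -0.006 on the log2 scale (SE 0.15). Pola1, which extends primers, varied most between libraries of a group, with 15.5 and 10.2 CPM in the controls and 5.18 and 14.3 CPM in the UBXN9 libraries. The value of -0.39 carried an SE of 0.46 and was 0.16 without UBXN9 1 and -1.31 without UBXN9 2. Pola2, its accessory subunit, had a log2 fold change of -0.24 with no overlap of the groups.

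Of the clamp, its loaders and the single strand binding proteins, 6 of 7 were negative, with a median of -0.30. Rfc3, a clamp loader subunit, had the largest positive value of all 41 genes. It had 69.8 and 80.1 CPM in the controls and 117 and 85.2 CPM in the UBXN9 libraries, a log2 fold change of 0.43 (SE 0.20, adjusted p = 0.268). That value was 0.19 without UBXN9 1 and 0.65 without UBXN9 2. The other loader subunits Rfc2, Rfc4 and Rfc5 stood at -0.30, -0.36 and -0.013. Rfc5 had 92.2 and 109.0 CPM in the controls and 109.6 and 89.8 CPM after overexpression. Pcna, the clamp itself, overlapped between groups, with 325 and 270.8 CPM in the controls and 186 and 275 CPM in the UBXN9 libraries. Rpa1 and Rpa2, which coat single-stranded DNA, had log2 fold changes of -0.36 and -0.28, and Rpa2 overlapped between groups.

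Fen1, the nuclease that trims Okazaki fragments, and Lig1, the ligase that joins them, had closely similar values of -0.45 and -0.46. Lig1 had 211 and 247 CPM in the controls and 176 and 156 CPM in the UBXN9 libraries (SE 0.17, adjusted p = 0.163). Fen1 had 69.1 and 84.0 CPM against 63.2 and 49.1 CPM (SE 0.19, adjusted p = 0.239). In both genes the groups did not overlap. The antisense gene Gm10143 covers 78.8% of the exon length of Fen1 and held at most 100 counts in a library.

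Control of S phase entry had 4 of 5 genes negative, with a median of -0.33. E2f1, the best known activator among the E2F factors, had 81.8 and 86.1 CPM in the controls and 57.8 and 60.5 CPM in the UBXN9 libraries. Libraries of a group lay close together, and the log2 fold change of -0.51 (SE 0.15) had an adjusted p of 0.101. E2f2, its relative, had 36.7 and 39.3 CPM against 22.9 and 30.3 CPM (log2 fold change -0.51, adjusted p = 0.185). Uhrf1, which guides maintenance methylation at the fork, had a log2 fold change of -0.33 with no overlap. Of the E-type cyclins, Ccne1 had -0.20, and Ccne2 had 0.13 with an SE of 0.39. Ccne2 had 12.1 and 10.9 CPM in the controls and 17.8 and 7.62 CPM in UBXN9 1 and 2, so the UBXN9 libraries lay on either side of the controls.

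**Figure D3:**
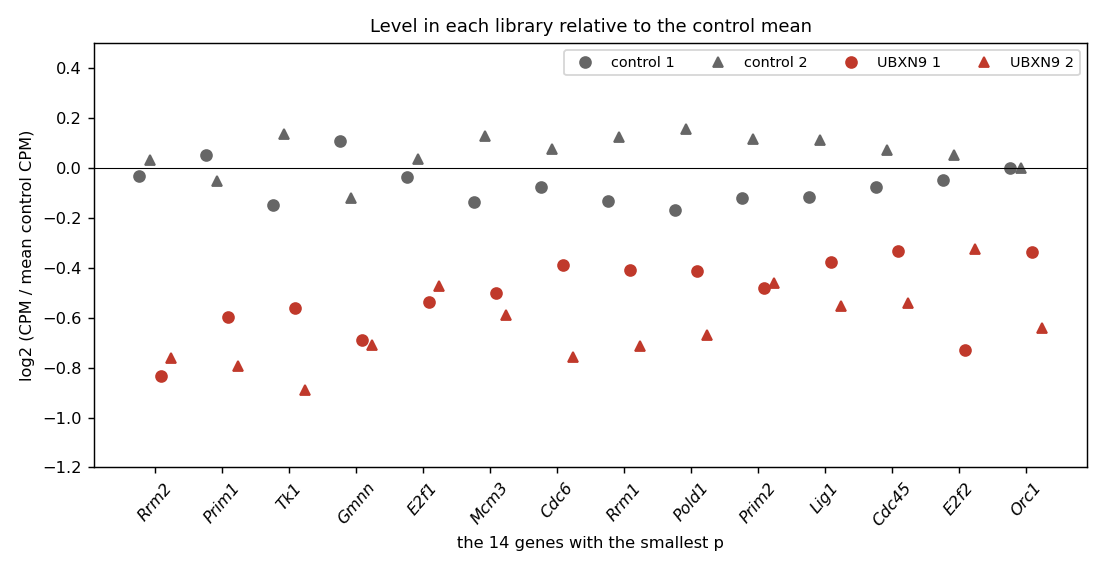
Level in each library as log2 of CPM over the mean control CPM (y axis) for the 14 genes with the smallest p, in that order from the left, with grey symbols for control and red for UBXN9-overexpressing libraries, circles for library 1 and triangles for library 2. All red symbols lie below all grey ones in each gene, and the libraries of a group are closest for Orc1 in the controls and for Gmnn and Prim2 in the UBXN9 libraries.

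Position in the genome moved with these values. Over all genes tested the median log2 fold change was 0.27 on chromosome 4, 0.31 on chromosome 8 and 0.11 on chromosome 5, while on the other 17 chromosomes it lay between -0.12 and -0.0082. Chromosomes 4, 5 and 8 hold 16 of the 41 genes, with a median of -0.11 and 12 negative. The other 25 had a median of -0.44, and all but Mcm6 were negative. Of the 5 genes with positive values, Cdt1 and Gins4 lie on chromosome 8, Ccne2 on chromosome 4 and Rfc3 on chromosome 5. The values of Cdt1 (0.26), Gins4 (0.24) and Ccne2 (0.13) were below the medians of their chromosomes. Those of Rfc3 (0.43) and Mcm6 (0.18) were above. Taken relative to the median of its own chromosome, the median of the 41 was -0.35. The part of chromosome position in single values was not tested.

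**Figure D4:**
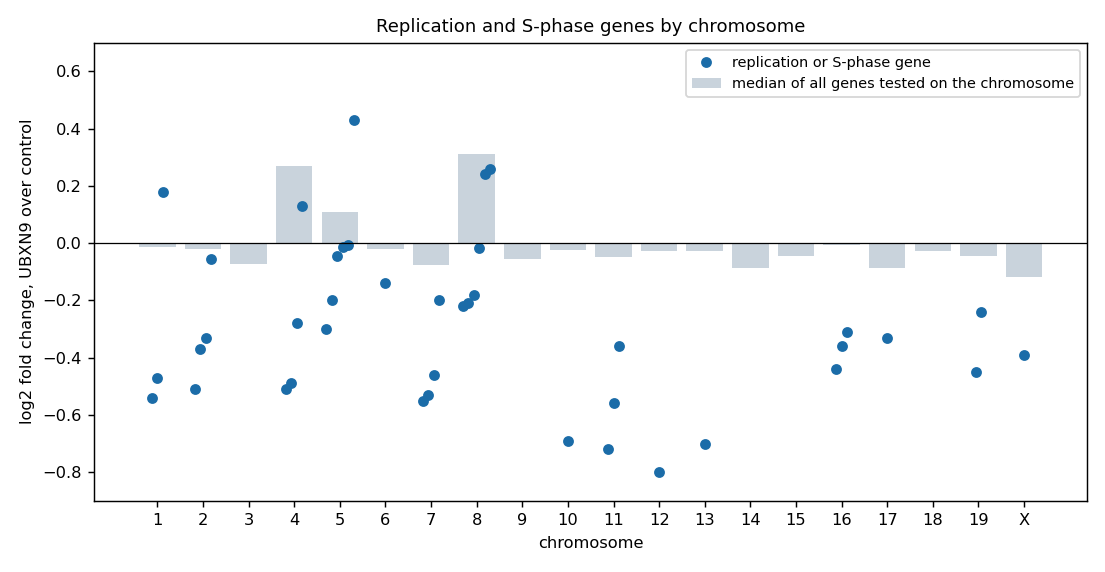
Log2 fold change of UBXN9-overexpressing over control cells (y axis) by chromosome (x axis), with a blue point for each of the 41 genes and a grey bar for the median of all genes tested on that chromosome. The bars stand above 0 on chromosomes 4, 5 and 8, and the points off these chromosomes lie below 0 with the exception of Mcm6.

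A further 80 genes of replication, nucleotide supply and S phase entry gave a smaller shift, with 3 of 80 lower and 1 higher, 60 negative and a median of -0.18. The share called lower was 3.75%, beside 2.38% of all genes tested, and the share called in either direction was 5.00%, beside 7.44%. Wdhd1, an adaptor that ties the polymerase to the helicase, had 46.9 and 50 CPM in the controls and 24.9 and 21.9 CPM after overexpression, a log2 fold change of -1.05 (SE 0.17) that passed the test at an adjusted p of 0.0127. Its adjusted p was 0.103 without control 2. Dnmt1, the maintenance methyltransferase that works with Uhrf1, fell by 0.69 (adjusted p = 0.0475), and Mybl2, an E2F target that drives later cell cycle genes, fell by 0.65 (adjusted p = 0.0488). With RLE factors these p values were 0.0518 and 0.0517, and both calls were also lost without either control library and with a replicate block.

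Samhd1 was the gene of that list that rose, with a log2 fold change of 1.52 (SE 0.17) and an adjusted p of 0.00343. It encodes an enzyme that destroys deoxynucleotides and is also known as an interferon-stimulated gene. Samhd1 had 107 and 100.5 CPM in the controls and 267 and 329 CPM in the UBXN9 libraries, the reverse of the direction of Rrm2. All 8 genes of clamp loading and fork protection in that list were negative (median -0.59), as were all 8 of chromatin assembly (median -0.28), and in neither group did more than 1 gene pass.

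Of 25 further genes of S phase entry in that list, Mybl2 passed, 17 were negative and the median was -0.16. Both UBXN9 libraries lay below both controls in 8 of them, or 32.0%, and above in 5. Over all genes tested these shares were 25.6% below and 25.0% above. Of those above, named after their values were seen, the D-type cyclin gene Ccnd2 had a log2 fold change of 0.71 (edgeR adjusted p = 0.0828) and the kinase inhibitor gene Cdkn2b had 0.51 (adjusted p = 0.0894). Cdkn2a, Ccnd3 and E2f4 had 0.49, 0.29 and 0.059. Cdkn2a and Cdkn2b lie on chromosome 4 and E2f4 on chromosome 8, where the medians over all genes tested were 0.27 and 0.31. Ccnd2 and Ccnd3 lie on chromosomes 6 and 17. Cdk2, the partner of cyclin E, had 52.7 and 49.4 CPM in the controls and 32.7 and 42.8 CPM in the UBXN9 libraries (log2 fold change -0.43, adjusted p = 0.241). Ccnd1, the G1 cyclin, had -0.14 and overlapped between groups. The kinase inhibitor gene Cdkn1a, a p53 target, had 99.1 and 138 CPM in the controls and 114 and 93.0 CPM in the UBXN9 libraries, also overlapping (log2 fold change -0.20). Rb1 and Rrm2b, the p53-inducible relative of Rrm2, stayed under 4 CPM in every library, with values of -0.17 and -0.13 and SEs of 0.55 and 0.47.

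Beside them, 30 genes of mitosis had a median of -0.44, with 29 negative and 3 lower, or 10.0% called, beside 2.38% of all genes tested called lower and 7.44% either way. Kif20a, Aurkb and Birc5 fell by 0.85, 0.83 and 0.75 on the log2 scale (edgeR adjusted p = 0.0214, 0.0214 and 0.0387). Cdc23 covers 29.3% of the exon length of Kif20a on the opposite strand. The value of Kif20a is therefore uncertain, since the use of strand in counting is not stated. With a replicate block 0 of the 30 were called, where 2.21% of all genes tested were called lower. The median of the 30 was -0.48 without control 1 and -0.57 without control 2. In 23 of these 30 genes both UBXN9 libraries lay below both controls, against 25.6% of all genes. Whether the lists differ from each other was not tested.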

How the data were processed

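The authors deposited a table of estimated counts per gene, partly fractional and not scaled to a common total. Per the submitters' processing notes the tools were HISAT2 2.1.0 and HTSeq and the build was GRCm38.p6; the annotation, settings and use of strand are not given in the sources used here. The library kit was TruSeq RNA, per the labels' protocols.

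Values were rounded to whole counts. Of 55728 entries, 241 unannotated loci, with 0.302% to 0.535% of the counts, were left out. Symbols, positions and transcript lengths came from GENCODE M21 (GRCm38), and promoter sequences from RefSeq (GRCm38.p6). Levels per kilobase use the longest principal transcript.

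All genes passing filterByExpr were fitted together with edgeR 4.0.16 in R 4.3.3 (TMM, quasi-likelihood F test, two-sided, adjusted p under 0.05). Each SE is the absolute log2 fold change divided by the square root of the F statistic. With 2 libraries a group, the smallest two-sided p an exact permutation test allows is 0.333, so none was used. The procedure was tested on 5 simulated draws with 200 of 13230 genes changed. It called 44.6% of the changes of 1 on the log2 scale and 86.6% of those of 2. Of its calls 8.64% were false, and smaller changes were not simulated. Alternatives used limma 3.58.1 and DESeq2 1.42.0, other scalings and filters, a block for the replicate number, and each library left out. Offsets for length used the merged length of all annotated exons of a gene.

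The genes and lists were chosen with earlier results of these data known. Named are all 41 genes, with values per library for the called gene, the 14 with the smallest p, and the largest rise and smallest change of each role; the called genes of the wider list with Cdkn1a, Rb1, Ccnd1, Rrm2b and Cdk2; 3 mitosis genes; and Aspscr1. The other ratios and sequences were picked after values were seen. Figures were drawn with matplotlib 3.10.9.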

Additional observations from a re-analysis of the deposited data

How the results depend on the processing

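Of the 41 genes, 1 was called of 984 over all genes. In this section counts of called genes, also among the 80 and the mitosis genes, are in either direction. The percentages beside them are the share of all genes called lower only, so the 2 are not directly comparable. The median of the 41 kept its sign in every alternative run, and 32 to 37 of them were negative wherever all 41 were tested; without chromosomes 4, 5 and 8, 24 of the remaining 25 were. DESeq2 called 1249 genes, 3.02% of all lower, and 4 of the 41 (Mcm3, Prim1, Rrm2 and Tk1), all lower, with 8 of the 80 further genes and 5 of the 30 mitosis genes, where edgeR called 4 and 3. An offset for merged exon length called 1550 genes (4.16% lower), 2 of the 41 (both lower), 8 of the 80 and 8 mitosis genes. No filter on low counts called 1827 (3.0% lower), 3 (all lower), 10 and 7. Library totals alone called 752 genes (2.20% lower) and 2 of the 41, both lower, and shifted the median of all genes to -0.094, that of the 80 to -0.27 and that of the mitosis genes to -0.54. Upper-quartile factors gave medians of -0.23 and -0.50, and RLE factors called 1010 genes (2.38% lower) and 2 of the 80. An adjusted p under 0.01 left 398 genes (0.665% lower), 0 of the 41 (0 lower), 1 of the 80 and 0 mitosis genes. Without chromosomes 4, 5 and 8, an alternative chosen after seeing the data like centring by chromosome and crossing the numbers below, the medians of the 80 and the mitosis genes were -0.28 and -0.51, and centring gave -0.25 for the 80.

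Same-numbered libraries did not deviate together (r = -0.373 across 13230 genes, which are not independent), so the numbers do not show a pairing. With a replicate block 932 genes were called (2.21% lower), 0 of the 41 (0 lower) and 0 mitosis genes. A block on the crossed numbers called 3137 genes (10.3% lower), 19 of the 41 (18 lower), 29 of the 80 and 22 mitosis genes.

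Leaving out 1 library at a time gave 508 to 2782 called genes (0.974% to 9.78% lower), 0 to 11 of the 41 (0 to 11 lower), 1 to 22 of the 80 and 0 to 14 mitosis genes. The 0s of the 41 came without either control, and the 11 without UBXN9 1. Medians ran from -0.23 to -0.17 for the 80 and from -0.57 to -0.46 for the mitosis genes. Log2 fold changes that changed sign ran from -0.20 to 0.082 for Mcm10, -0.21 to 0.16 for Gins3, -0.018 to 0.46 for Gins4, -0.16 to 0.12 for Rfc5, -1.31 to 0.16 for Pola1, -0.085 to 0.071 for Pole, -0.26 to 0.15 for Tyms, -0.60 to 0.63 for Ccne2, -0.43 to 0.06 for Cdkn1a, -1.13 to 0.37 for Rb1 and -0.60 to 0.59 for Rrm2b. Rfc5 was also 0.011 with the length offset and 0.0095 with that offset and the replicate block, Pole 0.00085 with a filter of 5 CPM, and Ccne2 -0.026 with limma-voom. The causes were not tested. Of 954 values for single genes, 854 kept direction and call. Precision was lower for Rb1, Rrm2b and Pola1, at no more than 15.5 CPM, with SEs of 0.55, 0.47 and 0.46 beside a median of 0.18 for the 41.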
